A study of Homo sapiens with 12 samples.

Results

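The SLC39A genes encode the ZIP proteins, the membrane carriers that move zinc into the cytosol. The 10 family members described here were found by symbol in the table of all 20332 genes, which holds 14 SLC39A genes. They are SLC39A1, SLC39A3, SLC39A4, SLC39A6, SLC39A7, SLC39A8, SLC39A9, SLC39A10, SLC39A11 and SLC39A14. Transcripts were measured by bulk RNA sequencing of poly(A)-selected RNA in KLE and Ishikawa cells, which are established human endometrial cancer lines. The 4 groups were KLE cells with 200 µM CuCl2 for 24 h, KLE cells with no added copper, Ishikawa cells with 200 µM CuCl2 for 24 h, and Ishikawa cells with no added copper. Each group held 3 libraries that the labels give as independent biological replicates, 12 in all. The labels describe the control cells both as untreated and as vehicle, and they are called untreated here. The labels name no introduced allele, and all groups shared one serum-supplemented medium, whose own zinc and copper content is not given in the sources used here.

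ZIP proteins carry zinc towards the cytosol, either from outside the cell or out of the Golgi, the endoplasmic reticulum and vesicles, and the SLC30A (ZnT) proteins carry it the other way. Metallothioneins bind cytosolic zinc and copper, and the zinc-sensing factor MTF1 drives their genes and SLC30A1. ZIP8 and ZIP14 also carry manganese, iron and cadmium. The best known member in hormone-responsive tissue is SLC39A6, described as LIV-1, an estrogen-responsive gene of breast cancer cells.

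With copper, 5 of the 10 members fell in KLE cells and none rose, while in Ishikawa cells 3 fell and 3 rose. SLC39A4, SLC39A10 and SLC39A11 fell in both lines, and SLC39A7, SLC39A10 and SLC39A11 lost their KLE call under some alternatives. Of the 3 that rose in Ishikawa cells (SLC39A6, SLC39A9 and SLC39A14), SLC39A14 lost its call in 13 of 17 alternatives, and on library totals none was called higher and 5 members were called lower. SLC39A10 had the largest change in Ishikawa cells, to 85.9 ± 6.33 CPM with copper, against 192.5 ± 14.1 CPM untreated. SLC39A8 had the largest change in KLE cells, to 164 ± 4.87 CPM with copper, against 242 ± 3.97 CPM untreated (mean ± SD, n = 3 each). CPM are whole counts scaled to the library total, here with TMM factors computed within each line. A gene was called when edgeR's quasi-likelihood test over all genes gave a Benjamini-Hochberg adjusted p under 0.05, two-sided, and "rose" and "fell" are used only of called genes. The p-values measure the spread between these 3 cultures a group. In bulk RNA, a change in the share of cells that express a gene and a change in RNA per cell cannot be told apart.

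**Figure D1:**
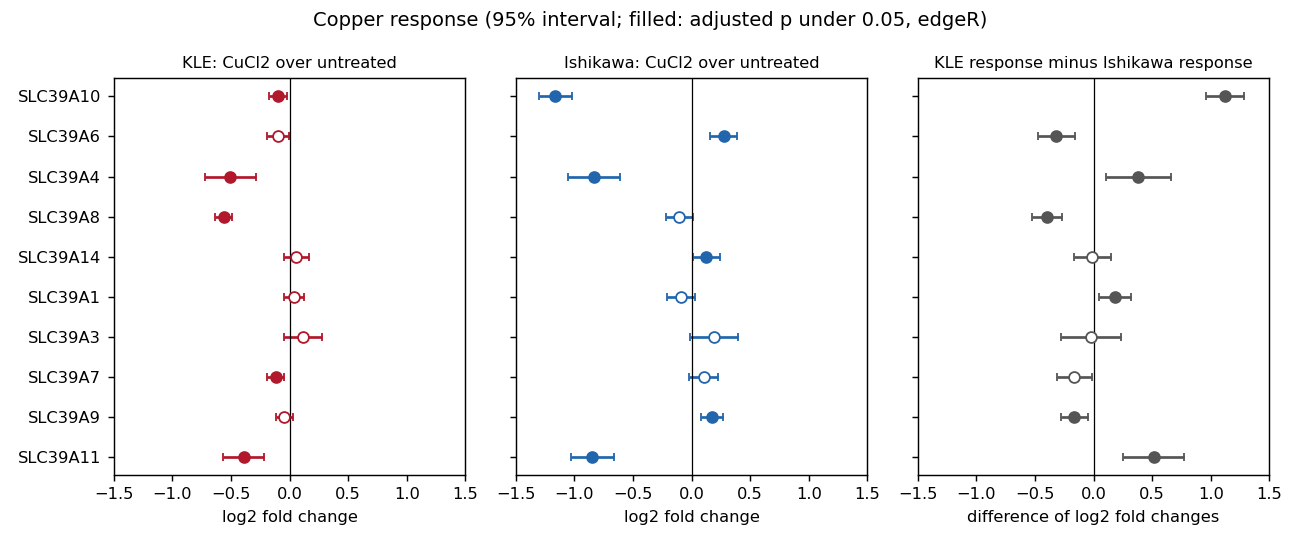
Log2 fold change of each SLC39A gene with CuCl2 over untreated in KLE cells (left) and in Ishikawa cells (middle), and the KLE response minus the Ishikawa response (right). The right panel comes from the fit of all 12 libraries, so it is not the exact difference of the other panels. Points are edgeR estimates, bars are 95% intervals, and filled points have an adjusted p under 0.05. SLC39A10 lies at -0.10 in KLE cells and at -1.16 in Ishikawa cells, and SLC39A8 at -0.56 in KLE cells and at -0.10 in Ishikawa cells.

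These counts stand among broad responses. Of 13031 genes tested in KLE cells 50.8% were called, 25.6% higher and 25.2% lower, and of 13359 tested in Ishikawa cells 69.1% were called, 33.8% higher and 35.3% lower. All 10 members passed the count filter in every comparison. In KLE cells the median absolute log2 fold change was 0.11 over the members and 0.19 over all genes tested. In Ishikawa cells the same medians were 0.18 and 0.42. Signed medians were -0.10 over the members and -0.00 over all genes in KLE cells, and 0.01 and -0.01 in Ishikawa cells. Library by library, 5 members were lower in all 3 copper-treated KLE libraries than in any untreated one, against 28.1% of all genes, and none was higher throughout. In Ishikawa cells 4 members were lower throughout, against 37.1% of all genes, and 3 were higher throughout, against 35.4%.

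**Figure D2:**
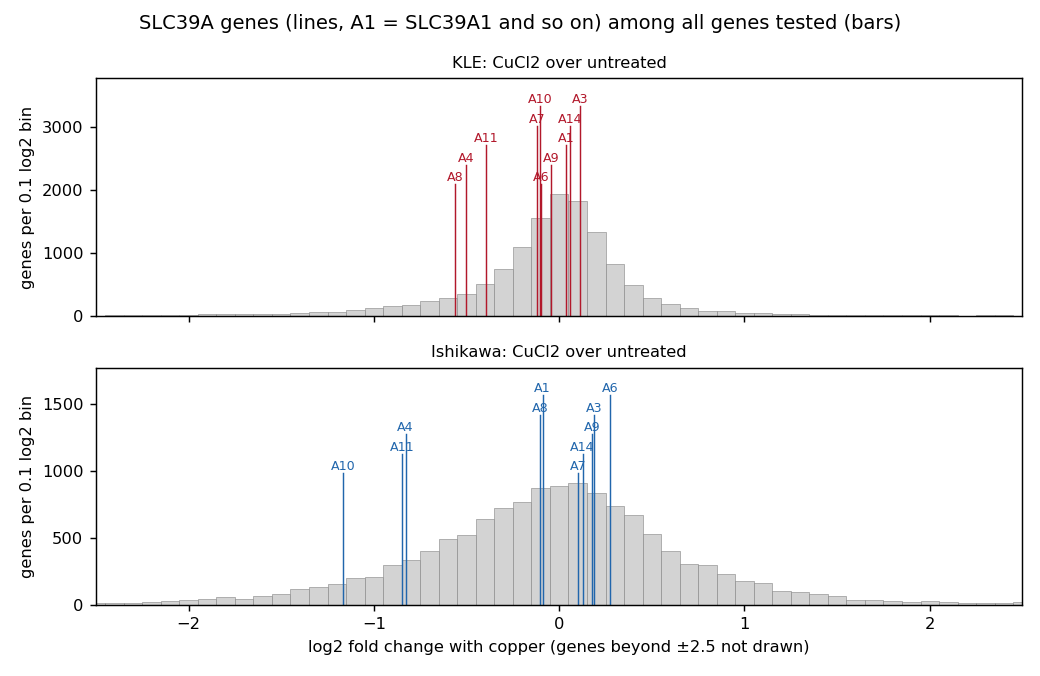
Distribution of log2 fold changes with CuCl2 over untreated for all genes tested (grey bars, genes per bin of 0.1) in KLE cells (top) and Ishikawa cells (bottom), with each SLC39A gene as a labelled line, A1 standing for SLC39A1 and so on. Line heights are staggered only to separate the labels. In KLE cells 7 of the 10 lines lie between -0.12 and 0.11, and SLC39A11, SLC39A4 and SLC39A8 lie at -0.39, -0.50 and -0.56.

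Libraries held 14050275 to 25057003 counts. Untreated Ishikawa replicate 2 was the deepest library and stood apart from the other 2 of its group, with a chi-square per degree of freedom of 8.45 and 12.9 against them, where all other pairs within a group gave 2.05 to 3.95. Mitochondrial transcripts made up 4.05 to 4.72% of counts in copper-treated KLE cells, against 5.91 to 6.82% in untreated KLE cells. The epithelial markers PAX8, EPCAM, CDH1, KRT8 and KRT18 had at least 3566 counts in every library. With copper, 4 of these 5 were called lower in Ishikawa cells, where PAX8 had 272 ± 5.83 CPM with copper, against 463 ± 38.5 CPM untreated, and KRT8 had 591 ± 13.6 CPM with copper, against 964 ± 71.4 CPM untreated. In KLE cells 2 of them (KRT8 and KRT18) were called higher and PAX8 lower. The shares over all genes, for these and the markers below, were 33.8% higher and 35.3% lower in Ishikawa cells. In KLE cells they were 25.6% and 25.2%. Of the leukocyte markers PTPRC, CD3E, CD14 and LST1, none had more than 21 counts in a library. PTPRC, the one of them tested in Ishikawa cells, was called higher there, at 1.07 ± 0.30 CPM with copper, against 0.387 ± 0.24 CPM untreated (edgeR adjusted p = 0.00946). The summed endothelial markers (PECAM1, CDH5, VWF and CLDN5) reached 8.47 to 14.5 CPM in copper-treated Ishikawa cells, against 4.71 to 6.58 CPM in untreated Ishikawa cells, and 1 of the 2 tested there was called higher. In KLE cells the same sum was 5.63 to 5.84 CPM with copper, against 6.77 to 10.11 CPM untreated, and 2 of 3 tested were called lower. The 6 fibroblast markers summed to 11.4 to 65.6 CPM over the 12 libraries, and 1 was called lower in KLE cells and none in Ishikawa cells. DCN and LUM had 0 counts in untreated Ishikawa replicate 2. The part of these values in the results on SLC39A genes was not tested.

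Ordered by TPM, the authors' abundances scaled to transcript length, SLC39A7 was the most abundant member and SLC39A4 the least abundant in all 4 groups. SLC39A7, the carrier that releases zinc from the endoplasmic reticulum, had 177 ± 5.29 TPM in copper-treated and 197 ± 3.47 TPM in untreated KLE cells, and 217 ± 1.56 TPM in copper-treated and 227 ± 25.6 TPM in untreated Ishikawa cells. SLC39A4, the intestinal zinc importer, had 8.95 ± 0.13 TPM in copper-treated and 12.96 ± 0.37 TPM in untreated KLE cells, and 7.87 ± 0.55 TPM in copper-treated and 15.9 ± 0.54 TPM in untreated Ishikawa cells. The 2 members whose place in the order differed most between groups were SLC39A8 and SLC39A10. SLC39A8 was 4th in copper-treated KLE, 2nd in untreated KLE, 5th in copper-treated Ishikawa and 6th in untreated Ishikawa cells. SLC39A10 was 6th in both KLE groups, 8th in copper-treated and 5th in untreated Ishikawa cells. Some neighbours in the order overlapped in their libraries: SLC39A3 and SLC39A14 in both copper-treated groups, SLC39A14 and SLC39A11 in untreated KLE cells, and SLC39A6 and SLC39A1 as well as SLC39A9 and SLC39A10 in untreated Ishikawa cells. The 10 genes together amounted to 731 ± 19.6 TPM in copper-treated and 827 ± 15.98 TPM in untreated KLE cells, and to 742 ± 6.73 TPM in copper-treated and 840 ± 33.1 TPM in untreated Ishikawa cells. On log2(TPM + 1) the median change of all genes with copper was itself -0.16 in Ishikawa cells, against -0.03 in KLE cells.

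**Figure D3:**
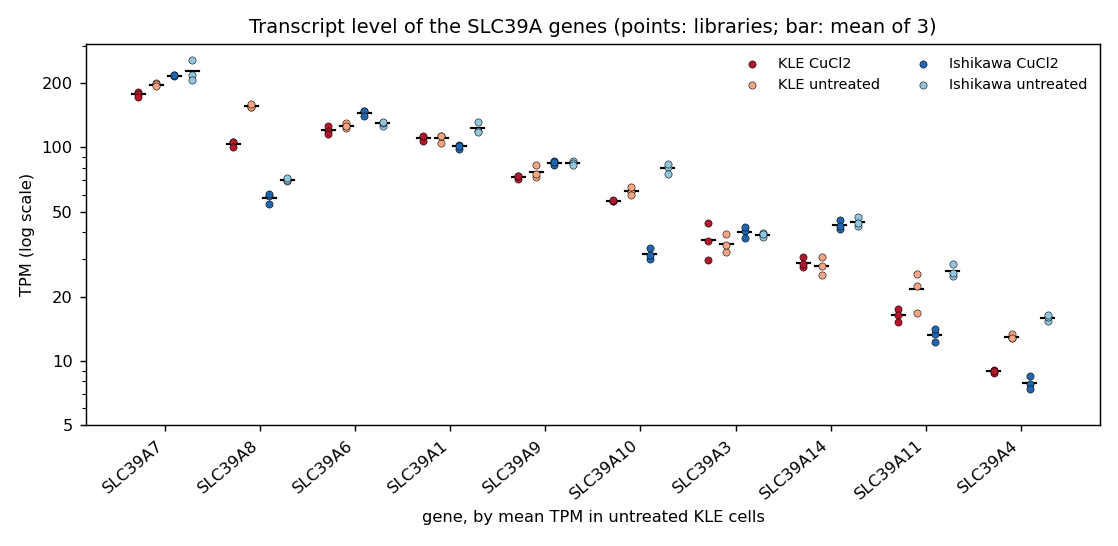
TPM of the 10 SLC39A genes on a log scale, ordered by their mean in untreated KLE cells; points are libraries, bars the mean of 3, and the groups are KLE CuCl2, KLE untreated, Ishikawa CuCl2 and Ishikawa untreated from left to right. The points of SLC39A10 in copper-treated Ishikawa cells (30.0 to 33.9 TPM) lie below those of the other groups (55.8 to 83.7 TPM), and those of SLC39A8 lie higher in both KLE groups than in both Ishikawa groups.

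SLC39A10 and SLC39A6 encode ZIP10 and ZIP6, plasma membrane carriers of one subfamily that are known to form a complex with each other. SLC39A10 (ENSG00000196950, chromosome 2, 195613029 to 195737700, GRCh38.p14, plus strand) had 146, 148 and 145 CPM in copper-treated KLE libraries 1 to 3, against 158, 153 and 160.3 CPM in untreated KLE libraries. It had 83.9, 80.8 and 93.0 CPM in copper-treated Ishikawa libraries, against 199.7, 176 and 202 CPM in untreated ones. In both lines every copper-treated library was below every untreated one, with a small gap in KLE cells and a wide one in Ishikawa cells. The log2 fold change was -0.10 ± 0.04 in KLE cells (SE, edgeR adjusted p = 0.0232) and -1.16 ± 0.07 in Ishikawa cells (adjusted p = 1.01e-09). The KLE call was lost without copper-treated KLE replicate 3 (adjusted p = 0.0623) and without untreated KLE replicate 3 (adjusted p = 0.107), in the fit of all 12 libraries (adjusted p = 0.134) and with DESeq2 (adjusted p = 0.0557), while the Ishikawa call held under all alternatives tried.

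SLC39A6, the LIV-1 gene, did the opposite of its partner in Ishikawa cells. It had 219, 199 and 189 CPM in copper-treated KLE libraries, against 226, 211 and 213 CPM in untreated ones. Ishikawa libraries had 236, 269.6 and 256 CPM with copper, against 207, 203 and 219 CPM untreated. The KLE groups overlapped, and the Ishikawa groups did not. Its log2 fold change was -0.10 ± 0.05 in KLE cells (adjusted p = 0.0735, not called) and 0.27 ± 0.05 in Ishikawa cells (adjusted p = 0.000362). In Ishikawa cells the call was lost on library totals (0.12, adjusted p = 0.0516). The ratio of SLC39A10 to SLC39A6 TPM was 0.446 to 0.490 in copper-treated and 0.474 to 0.517 in untreated KLE cells. In Ishikawa cells it was 0.204 to 0.241 with copper, against 0.576 to 0.642 untreated, so the ranges were far apart in that line and overlapped in KLE cells (no test was made on the ratio).

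**Figure D4:**
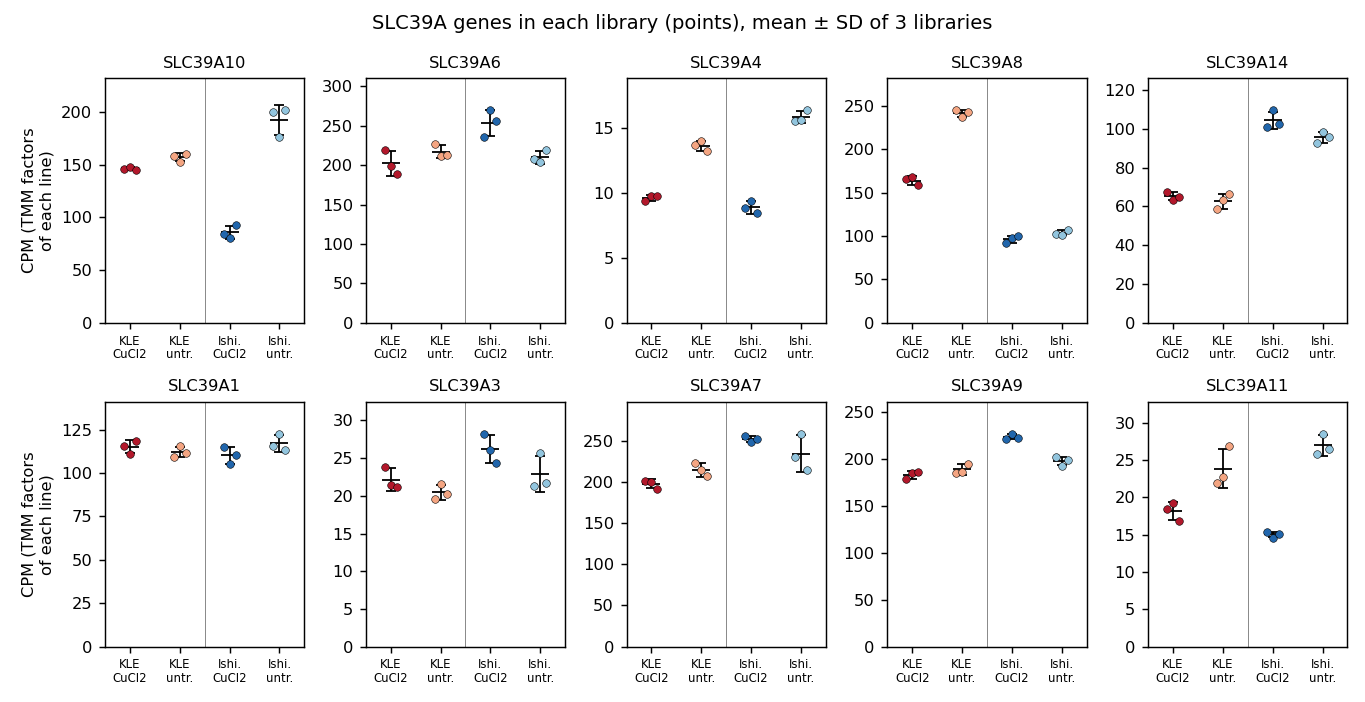
CPM of each SLC39A gene in every library (points), with the mean and SD of 3 libraries, for KLE CuCl2, KLE untreated, Ishikawa CuCl2 and Ishikawa untreated cells, each line scaled with its own TMM factors; each vertical axis starts at 0. SLC39A10 sits at 80.8 to 93.0 CPM in copper-treated Ishikawa cells, against 176 to 202 CPM in untreated ones, and SLC39A8 at 158 to 168 CPM in copper-treated KLE cells, against 237 to 245 CPM in untreated ones.

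The promoters of SLC39A10 and SLC39A8 are shown because SLC39A8 had the largest change with copper among the members in KLE cells and SLC39A10 in Ishikawa cells. The window runs over 300 bases, 250 before and 50 after a start site in RefSeq (GRCh38.p14). Capitals mark a match to the core of the metal response element, the motif that MTF1 binds, searched as TGCACNC or TGCGCNC on both strands. The first lies at chr2:195656976-195657275, plus strand, and the second at chr4:102345433-102345732, minus strand, each printed 5′ to 3′.
SLC39A10: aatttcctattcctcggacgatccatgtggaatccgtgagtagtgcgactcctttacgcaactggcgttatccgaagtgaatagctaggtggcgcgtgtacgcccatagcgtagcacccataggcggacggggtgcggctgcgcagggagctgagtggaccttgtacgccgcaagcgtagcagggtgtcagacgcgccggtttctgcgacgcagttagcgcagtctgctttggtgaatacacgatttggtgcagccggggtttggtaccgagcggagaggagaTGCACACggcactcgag
SLC39A8: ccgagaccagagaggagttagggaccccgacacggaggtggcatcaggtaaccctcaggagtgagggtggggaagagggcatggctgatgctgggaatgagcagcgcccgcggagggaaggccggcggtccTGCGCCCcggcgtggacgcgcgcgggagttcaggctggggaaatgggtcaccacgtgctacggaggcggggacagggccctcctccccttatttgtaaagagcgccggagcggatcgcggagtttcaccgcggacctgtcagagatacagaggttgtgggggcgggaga
The match begins at base 34 after the start site in SLC39A10 and at base -119 in SLC39A8. Other RefSeq start sites of both genes gave windows with no match. Of 13 windows found for 8 members, 5 windows of 5 members held at least 1 match (38.5%), against 29.6% of all 35116 windows, and each held a single one. The other 3 were windows of SLC39A1, SLC39A3 and SLC39A6. In the same search MT2A held 8 matches, MT1X 4 and SLC30A1 2. A match is a description of the letters and does not show a bound site.

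SLC39A8 and SLC39A14 encode ZIP8 and ZIP14, the closely related carriers of zinc, manganese, iron and cadmium. SLC39A8 (ENSG00000138821, chromosome 4, 102251041 to 102345482, minus strand) had 165, 168 and 158 CPM in copper-treated KLE libraries, against 245, 237 and 243 CPM in untreated ones. It had 91.9, 97.6 and 99.9 CPM in copper-treated Ishikawa libraries, against 102.8, 101.3 and 106.8 CPM in untreated ones. The groups did not overlap in either line, with a wide gap in KLE cells and a narrow one in Ishikawa cells. The log2 fold change was -0.56 ± 0.04 in KLE cells (adjusted p = 8.34e-17) and -0.10 ± 0.05 in Ishikawa cells (adjusted p = 0.1004, not called; 95% interval -0.22 to 0.01). Without untreated Ishikawa replicate 2 the Ishikawa value was -0.13 and was called (adjusted p = 0.0263).

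SLC39A14 had 67.6, 63.4 and 64.7 CPM in copper-treated KLE libraries, against 58.4, 63.1 and 66.4 CPM in untreated ones. Ishikawa libraries had 101.1, 109.5 and 102.5 CPM with copper, against 92.8, 98.1 and 95.6 CPM untreated. The KLE groups overlapped and the Ishikawa groups were close but separate. For SLC39A14 the log2 fold change was 0.06 ± 0.05 in KLE cells (adjusted p = 0.379) and 0.13 ± 0.05 in Ishikawa cells (adjusted p = 0.0482). With 1 Ishikawa library left out that last call was kept only without untreated replicate 2, and was lost in the other 5 fits (adjusted p up to 0.201), and the sign was negative on library totals (-0.03) and on log2(TPM + 1) (-0.04). The ratio of SLC39A8 to SLC39A14 TPM was 3.44 to 3.84 in copper-treated KLE cells, against 5.24 to 6.15 in untreated KLE cells, and 1.30 to 1.41 in copper-treated Ishikawa cells, against 1.5 to 1.63 in untreated Ishikawa cells.

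SLC39A4 encodes ZIP4, the intestinal importer whose loss causes the zinc deficiency acrodermatitis enteropathica. It fell in both lines and had the fewest counts of the members, 113 to 415 in a library. It had 9.34, 9.76 and 9.75 CPM in copper-treated KLE libraries, against 13.67, 13.99 and 13.23 CPM in untreated ones. Among Ishikawa libraries it had 8.85, 9.37 and 8.43 CPM with copper, against 15.5, 15.6 and 16.3 CPM untreated. All copper-treated libraries of both lines lay under 10 CPM and all untreated ones above 13 CPM. Its log2 fold change was -0.50 ± 0.11 in KLE cells (adjusted p = 0.000108) and -0.83 ± 0.10 in Ishikawa cells (adjusted p = 5.03e-06), and both calls held under all alternatives tried.

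SLC39A7, SLC39A9 and SLC39A11 act mainly on internal stores: ZIP7 in the endoplasmic reticulum and Golgi, ZIP9 in the Golgi and, in some cells, at the surface as an androgen receptor, and ZIP11 in the Golgi. SLC39A11 (ENSG00000133195, chromosome 17, 72645949 to 73092688, minus strand) had 18.4, 19.3 and 16.8 CPM in copper-treated KLE libraries, against 21.9, 22.8 and 26.8 CPM in untreated ones. In Ishikawa cells it had 15.3, 14.6 and 15.1 CPM with copper, against 25.8, 28.5 and 26.5 CPM untreated. The groups did not overlap in either line, and the gap was wider in Ishikawa cells. The log2 fold change was -0.39 ± 0.09 in KLE cells (adjusted p = 0.000168) and -0.85 ± 0.09 in Ishikawa cells (adjusted p = 6.02e-07). On log2(TPM + 1), where untreated KLE libraries spread over 16.8 to 25.6 TPM, the KLE call was lost (limma adjusted p = 0.0634).

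SLC39A7 had 202, 199.7 and 191 CPM in copper-treated KLE libraries, against 223, 214 and 207 CPM in untreated ones, with no overlap. Its Ishikawa values were 255, 248 and 252 CPM with copper, inside the spread of the 231, 258 and 214 CPM of untreated cells. For SLC39A7 the log2 fold change was -0.12 ± 0.04 in KLE cells (adjusted p = 0.0066) and 0.10 ± 0.06 in Ishikawa cells (adjusted p = 0.137). The KLE call was lost without untreated KLE replicate 1 (adjusted p = 0.0506) or copper-treated KLE replicate 3 (adjusted p = 0.0539), and in the fit of all 12 libraries (adjusted p = 0.065). Untreated Ishikawa replicate 2 was the highest of its group, and without it the Ishikawa value was 0.17 (adjusted p = 0.00092), while on library totals it was -0.05. The estimated counts of SLC39A7 were not whole in any library, so part of its reads was shared with other features, and 244 exonic bases overlap RXRB on the opposite strand, which bears on it because the sources used here do not say whether counting used strand.

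SLC39A9 had 178, 185 and 186 CPM in copper-treated KLE libraries, overlapping the 186, 186 and 195 CPM of untreated ones. Its Ishikawa values were 222, 227 and 223 CPM with copper, above the 202, 193 and 199 CPM of untreated cells. For SLC39A9 the log2 fold change was -0.04 ± 0.04 in KLE cells (adjusted p = 0.324) and 0.18 ± 0.04 in Ishikawa cells (adjusted p = 0.00236). In Ishikawa cells it was not called with upper-quartile factors (0.07, adjusted p = 0.204), on library totals (0.02, adjusted p = 0.636) or on log2(TPM + 1) (0.0058, limma adjusted p = 0.924). SLC39A9 shares 373 exonic bases with ERH on the opposite strand.

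SLC39A1 and SLC39A3 encode ZIP1 and ZIP3, related surface importers of wide expression, and neither was called with copper in either line. SLC39A1 had 111 to 119 CPM in copper-treated and 109 to 115 CPM in untreated KLE cells, and 105 to 115 CPM in copper-treated and 113 to 122 CPM in untreated Ishikawa cells. SLC39A3 had 21.1 to 23.9 CPM in copper-treated and 19.6 to 21.6 CPM in untreated KLE cells, and 24.4 to 28.2 CPM in copper-treated and 21.3 to 25.7 CPM in untreated Ishikawa cells. All 4 pairs of groups overlapped. The 95% intervals of the log2 fold change were -0.05 to 0.12 in KLE cells and -0.21 to 0.03 in Ishikawa cells for SLC39A1, and -0.05 to 0.27 in KLE cells and -0.01 to 0.39 in Ishikawa cells for SLC39A3. In Ishikawa cells SLC39A3 was called higher without untreated replicate 2 (0.28, adjusted p = 0.00757), and SLC39A1 was called lower in the fit of all 12 libraries (-0.15, adjusted p = 0.00784). The median of all genes in Ishikawa cells was -0.07 in the fit of all 12 libraries, against -0.01 in the fit of Ishikawa libraries alone. Both genes share exonic bases with another gene of the annotation on the same strand (2061 for SLC39A1, 436 for SLC39A3), and the estimated counts of SLC39A3 were not whole in any library.

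How the libraries were scaled mattered most in Ishikawa cells. The median log2 fold change of all genes there was -0.01 with TMM factors, -0.12 with upper-quartile factors, -0.17 on library totals and -0.16 on log2(TPM + 1). The share of called genes that were higher was 48.9% with TMM factors, and 39.0%, 35.7% and 34.8% under those 3 scalings. Among the members the split was 3 higher and 3 lower with TMM factors, 1 and 5 with upper-quartile factors, 0 and 5 on library totals, and 1 and 5 on log2(TPM + 1). SLC39A1 and SLC39A8 were called lower under the last 3, at -0.20 to -0.28 and -0.22 to -0.28. Both were also called lower in the fit of all 12 libraries (-0.15 and -0.16), where the median of all genes was -0.07. Factors and totals shift all genes of a library alike, so values relative to the median of all genes differ between those scalings only by the fit. Relative to that median, SLC39A10 lay at -1.15 with TMM factors and -1.15 on log2(TPM + 1), SLC39A6 at 0.29 and 0.32, SLC39A9 at 0.19 and 0.16, SLC39A14 at 0.14 and 0.11, SLC39A8 at -0.09 and -0.13, and SLC39A1 at -0.08 and -0.12. In KLE cells the median moved less, to -0.05 with upper-quartile factors and -0.03 on library totals, and the share of called genes that were higher was 50.3% with TMM factors, against 40.5% and 43.4%. The KLE member counts there were 0 higher and 7 lower with upper-quartile factors and 0 higher and 6 lower on library totals.

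**Figure D5:**
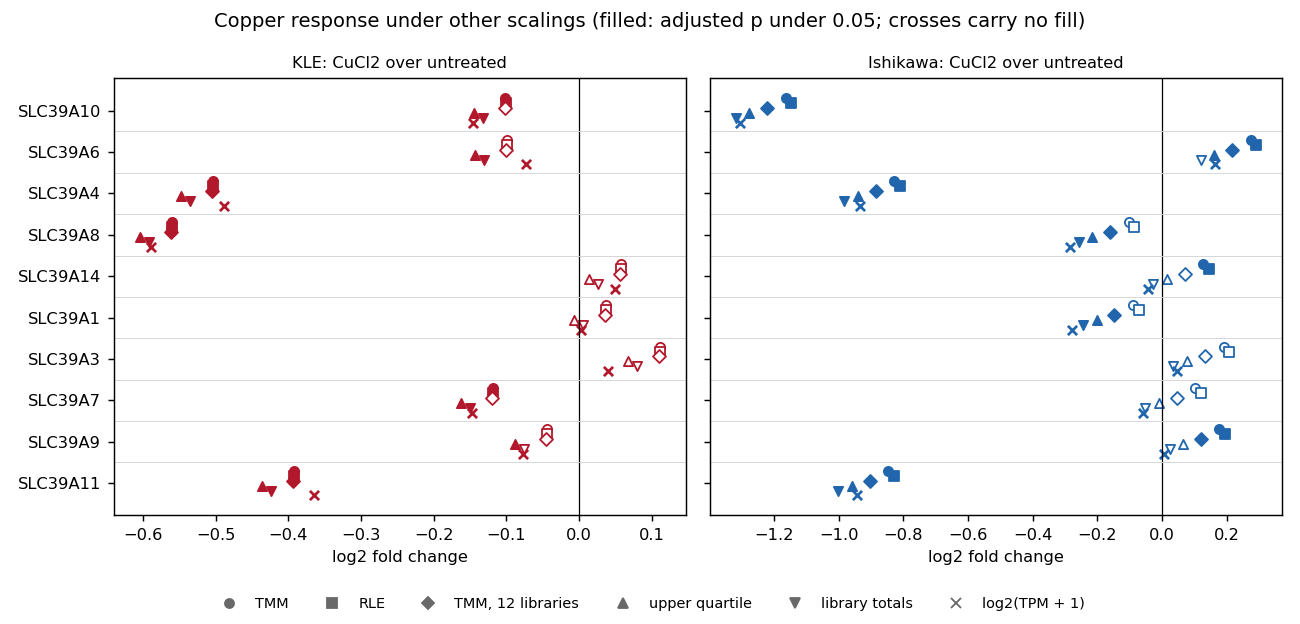
Log2 fold change with CuCl2 over untreated for each SLC39A gene in KLE cells (left) and Ishikawa cells (right) under 6 scalings, given by marker shape. Filled markers have an adjusted p under 0.05, open ones do not, and crosses (log2(TPM + 1)) carry no fill. In Ishikawa cells the markers of SLC39A10 span -1.15 to -1.32 and those of SLC39A14 span -0.04 to 0.14, on both sides of 0.

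The responses of the 2 lines differed for 7 of the 10 members in a contrast of all 12 libraries (KLE response minus Ishikawa response), 4 higher and 3 lower, against 45.4% of 13663 genes called, 24.6% higher and 20.8% lower. In that joint fit the Ishikawa value was -0.16 for SLC39A8 and -0.15 for SLC39A1, against -0.10 and -0.09 in the fit of Ishikawa libraries alone. The differences are therefore not exact differences of the values given above for each line. The median of all genes in Ishikawa cells also moved, to -0.07 in the joint fit from -0.01. Relative to it, SLC39A8 lay at -0.09 and SLC39A1 at -0.08 in both fits. The median of the difference over all genes was 0.03. The difference was 1.12 for SLC39A10 (95% interval 0.96 to 1.28, adjusted p = 1.28e-10), which fell far less in KLE cells. It was 0.51 for SLC39A11 (adjusted p = 0.00191) and 0.38 for SLC39A4 (adjusted p = 0.0249), both of which fell less in KLE cells. It was -0.40 for SLC39A8 (adjusted p = 1.5e-05), which fell in KLE cells and was not called in the fit of Ishikawa libraries alone. It was -0.32 for SLC39A6 (adjusted p = 0.00186), which rose in Ishikawa cells and was not called in KLE cells. SLC39A1 at 0.18 (adjusted p = 0.0289) and SLC39A9 at -0.17 (adjusted p = 0.0185) were also called. SLC39A3, SLC39A7 and SLC39A14 were not called, with 95% intervals of -0.28 to 0.24, -0.31 to -0.02 and -0.17 to 0.15. SLC39A7 was called in 7 of 22 alternatives, among them RLE factors (-0.21, adjusted p = 0.0218), DESeq2 (adjusted p = 0.0229) and the fit without untreated Ishikawa replicate 2 (-0.24, adjusted p = 0.000697). The calls of SLC39A10, SLC39A8, SLC39A11 and SLC39A6 held under all alternatives, while those of SLC39A1, SLC39A4 and SLC39A9 did not. The SLC39A1 value was 0.10 without copper-treated Ishikawa replicate 2 (adjusted p = 0.247) and 0.12 without copper-treated KLE replicate 3 (adjusted p = 0.199). Without untreated KLE replicate 3, 4 members were called in place of 7. Of 13887 genes tested in that fit, 3087 were called higher and 2582 lower.

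Without copper the lines already differed in 6 members, 1 higher and 5 lower in KLE cells, against 50% of 13663 genes called, 24.5% higher and 25.6% lower. On a scale common to the 12 libraries, SLC39A8 had 242 ± 3.80 CPM in untreated KLE cells, against 106 ± 3.14 CPM in untreated Ishikawa cells (log2 fold change 1.195 ± 0.043, adjusted p = 7.58e-17). SLC39A14 had 62.7 ± 4.05 CPM in untreated KLE cells, against 97.3 ± 2.61 CPM in untreated Ishikawa cells (-0.64 ± 0.05, adjusted p = 7.06e-10). Of these close relatives, SLC39A8 was the higher and SLC39A14 the lower in KLE cells. SLC39A10 had 157 ± 3.70 CPM in untreated KLE cells, against 196 ± 14.8 CPM in untreated Ishikawa cells (-0.32 ± 0.05, adjusted p = 2.67e-05). SLC39A4 (-0.24), SLC39A11 (-0.20) and SLC39A7 (-0.15) were lower in KLE cells by smaller steps, and these calls were lost under some alternatives. SLC39A7 lay at -0.08 without untreated Ishikawa replicate 2 (adjusted p = 0.11). By library, 1 member was higher and 6 were lower in all untreated KLE libraries than in any untreated Ishikawa one, against 27.2% and 27.9% of all genes. Between the untreated lines the median absolute log2 fold change was 0.20 over the members and 0.23 over all genes. With copper it was 0.19 over all genes in KLE and 0.42 in Ishikawa cells. The estrogen receptor gene ESR1 had 0.10 TPM in untreated KLE and 0.12 TPM in untreated Ishikawa cells. The identity of the lines was taken from the labels and was not tested.

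With copper the lines differed in 8 members, 3 higher and 5 lower in KLE cells, against 65.7% of genes called, 33.3% higher and 32.3% lower. SLC39A10 had 147 ± 1.14 CPM in copper-treated KLE cells, against 84.1 ± 6.38 CPM in copper-treated Ishikawa cells (0.80 ± 0.06, adjusted p = 1.61e-11), so its order between the lines was the reverse of that in untreated cells. SLC39A11 was higher in KLE cells, at 18.2 ± 1.22 CPM in copper-treated KLE cells, against 14.7 ± 0.37 CPM in copper-treated Ishikawa cells (0.31 ± 0.09, adjusted p = 0.00618), a call lost on log2(TPM + 1) (limma adjusted p = 0.0628) and without copper-treated Ishikawa replicate 2 (adjusted p = 0.0552). Its lower value in untreated KLE cells (adjusted p = 0.0447) lost its call in 9 of 17 alternatives, the replicate block among them (adjusted p = 0.0536). SLC39A8 stayed higher in KLE cells at 164 ± 4.65 CPM, against 94.5 ± 4.25 CPM in copper-treated Ishikawa cells (0.79 ± 0.04, adjusted p = 2.17e-13). SLC39A14 (-0.65), SLC39A7 (-0.32), SLC39A6 (-0.30), SLC39A9 (-0.26) and SLC39A3 (-0.21) were lower in KLE cells. The SLC39A3 call was lost in 6 of 17 alternatives, among them library totals (adjusted p = 0.0772), log2(TPM + 1) (limma adjusted p = 0.291) and the fits without copper-treated Ishikawa replicate 1 (adjusted p = 0.0741), KLE replicate 2 (adjusted p = 0.116) or KLE replicate 3 (adjusted p = 0.0589). By library, 4 members were higher and 5 were lower throughout, against 36% and 35.1% of all genes.

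Of the other 4 SLC39A genes in the table, SLC39A13 was the one with enough counts to test. It encodes ZIP13, an intracellular carrier needed for connective tissue. It had 15.1, 16.1 and 18.5 CPM in copper-treated KLE libraries, against 9.80, 14.47 and 13.04 CPM in untreated ones, and 7.75, 7.51 and 7.38 CPM in copper-treated Ishikawa libraries, against 11.0, 12.9 and 9.44 CPM in untreated ones. The copper-treated libraries were all above the untreated ones in KLE cells and all below them in Ishikawa cells. The log2 fold change was 0.40 ± 0.12 in KLE cells (adjusted p = 0.00488) and -0.57 ± 0.13 in Ishikawa cells (adjusted p = 0.00165), and the difference was 1.03 (adjusted p = 0.00015). The KLE call was lost on log2(TPM + 1) (limma adjusted p = 0.0791), and without untreated KLE replicate 1 the value was 0.26 (adjusted p = 0.0468). SLC39A12, a gene of the brain, had 0 counts in all 12 libraries. SLC39A2 had at most 5 counts and SLC39A5 at most 5 counts in a library.

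Other zinc genes were counted from lists. Of 11 zinc exporter genes (SLC30A1 to SLC30A10 and TMEM163), 7 were tested in KLE cells, where 3 rose and 1 fell, and 8 in Ishikawa cells, where 5 rose and 3 fell. Over all genes 25.6% were called higher and 25.2% lower in KLE cells, and 33.8% and 35.3% in Ishikawa cells. SLC30A1, the zinc exporter of the plasma membrane, had 191 ± 11.9 CPM in copper-treated and 111 ± 5.09 CPM in untreated KLE cells (0.78 ± 0.04, adjusted p = 2.91e-16), and 215 ± 24.0 CPM in copper-treated and 86.7 ± 1.85 CPM in untreated Ishikawa cells (1.32 ± 0.07, adjusted p = 6.85e-10). On the log2 scale SLC30A6 rose by 0.19 in KLE cells and by 0.71 in Ishikawa cells, and SLC30A9 fell by 0.21 in KLE cells and by 0.27 in Ishikawa cells. The KLE call of SLC30A6 was lost on log2(TPM + 1) (limma adjusted p = 0.0835). In Ishikawa cells SLC30A2 rose by 1.41, SLC30A10 fell by 1.41 and SLC30A4 fell by 0.81, the first 2 of these at under 3 CPM. The median log2 fold change of the list was 0.11 in KLE and 0.44 in Ishikawa cells, against -0.00 and -0.01 over all genes.

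All 5 tested of 12 zinc buffering genes (metallothioneins and MTF1) rose in each line, with a median of 3.21 in KLE and 6.13 in Ishikawa cells. Called higher over all genes were 25.6% in KLE and 33.8% in Ishikawa cells. MT1X had 367 ± 25.3 CPM in copper-treated and 37.7 ± 5.61 CPM in untreated KLE cells. MT1F had 45.6 ± 3.55 CPM in copper-treated and 0.589 ± 0.12 CPM in untreated Ishikawa cells. MT1G had 898 counts over the copper-treated and 2 over the untreated KLE libraries, a ratio of 445 (95% counting interval 123 to 3680), and 424 counts over the copper-treated and 1 over the untreated Ishikawa libraries, a ratio of 483 (86.3 to 19136). The metallothionein genes are close paralogs. The estimated counts of MT1F were whole in all 12 libraries. How far reads of MT1X and MT1G were shared with their paralogs was not tested.

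Of 8 manganese and iron transport genes, 6 were tested in KLE cells, where 1 rose and 4 fell, and 7 in Ishikawa cells, where 2 rose and 3 fell, against 25.6% of all genes higher and 25.2% lower in KLE cells and 33.8% higher and 35.3% lower in Ishikawa cells. SLC30A10, which fell in Ishikawa cells, is counted both here and among the zinc exporters. SLC40A1, which encodes the iron exporter ferroportin, fell to 9.67 ± 1.71 CPM in copper-treated KLE cells, against 19.4 ± 3.14 CPM untreated (-1.02 ± 0.13, adjusted p = 4.23e-06). In Ishikawa cells it fell to 6.44 ± 0.59 CPM with copper, against 16.9 ± 0.85 CPM untreated (-1.39 ± 0.12, adjusted p = 5.69e-08). SLC11A2, the iron and manganese importer DMT1, fell by 0.18 in KLE cells and by 0.43 in Ishikawa cells (adjusted p = 1.47e-06). ATP2C1, a Golgi calcium and manganese pump, rose by 0.34 in KLE and 0.23 in Ishikawa cells, and TMEM165, a Golgi protein of manganese balance, rose by 0.43 in Ishikawa cells; in Ishikawa cells the ATP2C1 call was lost with upper-quartile factors (0.12, adjusted p = 0.0663), on library totals and on TPM. The list medians were -0.13 in KLE and -0.06 in Ishikawa cells.

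Of 8 transcription factors known to act on SLC39A genes, 4 of 6 tested rose in KLE cells and 6 of 7 in Ishikawa cells, and none fell, against 25.6% of all genes called higher in KLE and 33.8% in Ishikawa cells. MTF1 is counted both here and among the zinc buffering genes. The list medians were 0.21 in KLE and 0.36 in Ishikawa cells, against -0.00 and -0.01 over all genes. MTF1 had 53.4 ± 2.45 CPM in copper-treated and 42.8 ± 0.95 CPM in untreated KLE cells (0.32 ± 0.06, adjusted p = 7.87e-06), and 92.5 ± 1.63 CPM in copper-treated and 44.1 ± 0.71 CPM in untreated Ishikawa cells (1.07 ± 0.06, adjusted p = 4.63e-10). STAT3, which acts upstream of SLC39A6 in zebrafish embryos, rose by 0.32 in KLE cells and by 0.25 in Ishikawa cells, where the call was lost on library totals (0.10, adjusted p = 0.0909) and on log2(TPM + 1) (0.05, limma adjusted p = 0.434). ESR1, the estrogen receptor that acts on SLC39A6 in breast cancer cells, was barely expressed, with 1 to 28 counts in a library. In Ishikawa cells it had 1.27 ± 0.41 CPM with copper, against 0.367 ± 0.34 CPM untreated (1.98 ± 0.60, adjusted p = 0.00968), a call that was lost without copper-treated Ishikawa replicate 1 (adjusted p = 0.0523) and on log2(TPM + 1) (0.30, limma adjusted p = 0.0568). The ESR1 value was 1.26 without untreated Ishikawa replicate 2.

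The genes whose pattern over the 12 libraries was most like that of SLC39A10 were ABHD14B, CNTN1 and DENND4B, by the root mean square distance of gene-centred log2 CPM among 13441 genes outside the family (0.0795, 0.105 and 0.109). For SLC39A8 they were ARRB1, SLC2A1 and FAM171B (0.0938, 0.114 and 0.133). The log2 fold changes with copper were -0.16 in KLE and -1.03 in Ishikawa cells for ABHD14B, and -0.51 in KLE and -0.20 in Ishikawa cells for ARRB1. The distance compares only the shape of the pattern over these libraries.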

How the data were processed

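RNA sequencing of the 12 libraries was deposited in 3 units. Per the file headers, the authors' table of all genes holds expected counts and TPM, and the whole counts deposited for each line are those expected counts rounded, with differences of at most 0.5. The submitters' processing notes name build GRCh38.p14, RSEM, HISAT2 (2.1.0), fastp (0.18.0), R (4.2.2), Bowtie2 (2.2.8) and DESeq2, without their roles. Which annotation release served and whether counting used strand is not given in the sources used here. Rows with no symbol held 0.173 to 0.207% of counts.

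Whole counts were tested with edgeR 4.0.16 in R 4.3.3 (TMM factors, filterByExpr, robust quasi-likelihood fit, Benjamini-Hochberg adjusted p under 0.05 over all genes tested, two-sided). CuCl2 was set against untreated cells within a line, over its 6 libraries. All other comparisons came from 1 joint model of the 12 libraries, and CPM of line comparisons use the factors of that fit. The SE is the absolute log2 fold change over the square root of F, and runs low for groups with few counts. The procedure was tested on simulated data with 200 genes changed by 1.5 or 2 fold, as many up as down, and all others unchanged. That setting lacks the broad responses of these data, so it does not test how the scaling acts here. Alternatives were RLE and upper-quartile factors, library totals, CPM above 1 in 3 libraries, no count filter, DESeq2 1.42.0, limma 3.58.1 (voom, and log2 TPM with a pseudocount of 1 or 0.1), a replicate block, the other set of libraries in the fit, and leaving out each library; they were added for the other named genes after seeing the data. Where a fit left 2 libraries in a group, the spread was pooled over groups.

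The members and lists were chosen with earlier results of these data known. Named genes were all members, the other SLC39A genes, per list and line at most 2 called genes that rose most and 2 that fell most, and the 3 genes nearest in pattern to the member with the largest called change in each line. Positions and promoters come from RefSeq (GRCh38.p14) and overlaps of exons from GENCODE v29. Protein sequences were not analysed here, and 1 marker gene of the lists is not reported here.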

Additional observations from a re-analysis of the deposited data

Results flagged for a closer look

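These values are singled out because the response to copper differed between the 2 lines by a test of the difference itself. The test was a contrast of 12 libraries, KLE log2 fold change minus Ishikawa log2 fold change, both from that fit (edgeR adjusted p under 0.05). No library was left out of this test, although untreated Ishikawa replicate 2 stood apart from the other 2 of its group. Among the members the differences were 1.12 for SLC39A10, 0.51 for SLC39A11, 0.38 for SLC39A4, 0.18 for SLC39A1, -0.17 for SLC39A9, -0.32 for SLC39A6 and -0.40 for SLC39A8. The calls of SLC39A1, SLC39A4 and SLC39A9 were lost in 10, 7 and 5 of 22 alternatives. With DESeq2 the adjusted p was 0.117 for SLC39A1 and 0.123 for SLC39A4, and with RLE factors it was 0.0858 for SLC39A1 (edgeR). SLC39A13 differed by 1.03, with opposite calls in the 2 lines. Among zinc exporters the differences were 0.98 for SLC30A4, -0.47 for SLC30A6 and -0.48 for SLC30A1. Among the buffering genes they were -0.69 for MTF1, -2.15 for MT1X and -2.95 for MT1F. Among manganese and iron transport genes they were 0.31 for SLC11A2, 0.17 for ATP2C1 and -0.27 for TMEM165. The ATP2C1 call was lost in 12 of 22 alternatives, among them RLE factors (adjusted p = 0.114) and DESeq2 (adjusted p = 0.147), and that of TMEM165 on log2(TPM + 1) (limma adjusted p = 0.058).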

How the results depend on the processing

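Of 900 values for the 50 member results under alternatives, 761 kept their direction and their side of the threshold, 72 kept the direction and lost the call, 43 gained one and 24 changed sign, the last near 0. Calls that held under every alternative were SLC39A10, SLC39A11 and SLC39A4 with copper in Ishikawa cells, SLC39A8 and SLC39A4 in KLE cells, SLC39A10, SLC39A8, SLC39A11 and SLC39A6 in the difference of the responses, SLC39A8, SLC39A14 and SLC39A10 between untreated lines, and SLC39A6, SLC39A7, SLC39A8, SLC39A9, SLC39A10 and SLC39A14 between copper-treated lines. Members called in KLE cells numbered 3 in the fit of all 12 libraries, and the cause was not tested. That fit called 2892 genes higher and 2912 lower of 13663 in KLE cells, against 6617 of 13031 called in the fit of KLE libraries alone. SLC39A7 stayed at -0.12 with an SE of 0.051 in place of 0.037, and SLC39A10 at -0.10 with an SE of 0.054 in place of 0.038. Leaving out 1 library gave 3 to 6 in KLE cells (3 without copper-treated replicate 3), 5 to 9 in Ishikawa cells (9, 5 higher and 4 lower, without untreated replicate 2), 4 to 7 in the difference (4 without untreated KLE replicate 3), 4 to 7 between untreated and 7 to 8 between copper-treated lines. Over all genes, those fits called 5844 to 6238 in KLE cells, 8546 to 9408 in Ishikawa cells and 5598 to 6530 in the difference. They called 6035 to 6842 between untreated and 8372 to 8501 between copper-treated lines. Signs changed in Ishikawa cells for SLC39A7 (-0.0087 with upper-quartile factors, -0.0517 on library totals, -0.0595 and -0.0597 on log2 TPM with a pseudocount of 1 and 0.1) and SLC39A14 (-0.0276 on library totals, -0.0441 and -0.045 on log2 TPM), and in KLE cells for SLC39A1 (-0.0071 with upper-quartile factors). In the difference they changed for SLC39A3 (0.0461 on library totals; -0.118 to 0.0289 with 1 library left out) and SLC39A14 (0.0542 on library totals, 0.094 and 0.0965 on log2 TPM; -0.101 to 0.0339 with 1 library left out). Between untreated lines SLC39A6 changed sign (-0.0146 on library totals, -0.0355 and -0.0357 on log2 TPM; -0.0068 to 0.0535 with 1 library left out). On library totals and log2 TPM the share of called genes that were higher in the difference was 63.9% and 64.7%, against 54.1% with TMM factors, and the median of all genes was 0.10 and 0.11, against 0.03. It was 47.9% with RLE factors, 46.2% with DESeq2, 48.9% with no count filter and 45.4 to 54.5% with 1 library left out, and the median was -0.0073 with RLE factors.

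With the replicate number as a block, 5 members were called in Ishikawa cells, 6 in KLE cells, 7 in the difference, 5 between untreated and 8 between copper-treated lines. Over all genes the same fits called 4586 higher and 4769 lower of 13359 in Ishikawa cells, and 3130 and 3063 of 13031 in KLE cells. Of 13663 genes they called 3327 and 2805 in the difference, 3315 and 3460 between untreated lines, and 4530 and 4375 between copper-treated lines. Correlations of same-numbered libraries between groups ran over -0.13 to 0.17, 1 of 18 was above 0.1, and in 4 of 18 cases a library correlated best with its own number. The numbers were therefore not taken as pairs. Between the Ishikawa groups the same-numbered pairs were all positive (0.05, 0.17 and 0.08), and between the KLE groups all negative (-0.06, -0.04 and -0.08). Small changes of SLC39A3, SLC39A4 and SLC39A11, the members with the fewest counts, were the least detectable at this depth.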
